A study of Mus musculus with 32 samples.

Results

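Bone marrow-derived macrophages without Nur77 (BMDM-Nur77-KO) were compared with wild-type macrophages (BMDM-WT) after 5 h with lipopolysaccharide (LPS), the bacterial outer membrane component that signals through Toll-like receptor 4. The comparison uses 8 of the 32 RNA-seq libraries of the series, 4 of each genotype, chosen by their labels for genotype and time. The other 24 libraries hold the same genotypes before LPS, after 1 h and after 18 h, and entered the model that estimates the spread. The macrophages were grown for 7 days in L929-conditioned medium from the marrow of male mice aged 6 to 12 weeks and received LPS at 100 ng/ml. The knockout mice descend from a cross of animals with a loxP-flanked Nr4a1 gene, which encodes Nur77, and C57Bl6/J animals with Cre under the CMV promoter. The gene was therefore lost in the whole body and not in macrophages alone. The study's methods name no strain for the loxP animals. Per the study's methods, knockout animals that no longer expressed Cre were then bred, and the controls were wild-type littermates. The knockout libraries nevertheless carry the genotype label cre, and the control libraries the label wt. Cells were seeded in 4 replicates per genotype and time, and the sources used here do not say whether these came from separate animals, so the p-values measure the spread between libraries, which may be technical.

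Nur77 is an orphan nuclear receptor and an immediate-early gene, switched on within the first hour of macrophage activation, and it is known for restraining inflammatory gene expression. It binds DNA as a monomer at a short element, the NBRE, and can also act on promoters through other factors such as AP-1 and NF-kB. LPS starts a wave of immediate-early genes, then cytokine and chemokine genes driven by NF-kB and AP-1, then interferon-stimulated genes that follow from interferon beta made by the cells themselves. At 5 h the first wave has mostly passed, while the cytokine and interferon programmes are running. The comparison asks which genes differ between the genotypes at that stage.

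Each gene is represented by its transcript of highest mean count. Expression is given as CPM, read counts relative to the total of the library over the genes tested, scaled by the trimmed mean of M values. A gene is called higher or lower when the adjusted p of edgeR's quasi-likelihood test is under 0.05 and the log2 fold change, BMDM-Nur77-KO minus BMDM-WT, exceeds 0.58 (1.5-fold) in size. Summed over the transcripts that represent the genes, the 4 BMDM-Nur77-KO libraries held 12251434 to 15165490 counts and the 4 BMDM-WT libraries 10206035 to 11535789. Replicate 1 of BMDM-Nur77-KO stood apart from its replicates. On the first principal component, with 58.7% of the variance, it lay at 71.7, against 20.6, -5.71 and -7.76 for replicates 2, 3 and 4 and -23.8 to -14.01 for BMDM-WT. Pearson correlations of log2 CPM across genes were 0.956 to 0.978 between this library and the other BMDM-Nur77-KO libraries, 0.987 to 0.993 among those, and 0.991 to 0.993 among BMDM-WT. Relative to the mean of the 32 libraries, log2 CPM in replicate 1 fell with the GC content of the transcript over a range of 2.45. The range was 0.961 in replicate 2, 0.205 and 0.227 in replicates 3 and 4, and 0.208 to 0.465 in BMDM-WT at 5 h. In the other 24 libraries of the series it was 0.135 to 1.324, so that of replicate 2 lay within theirs. The part of GC content in single genes was not tested beyond a correction for this trend. Results are therefore given with and without replicate 1.

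**Figure D1:**
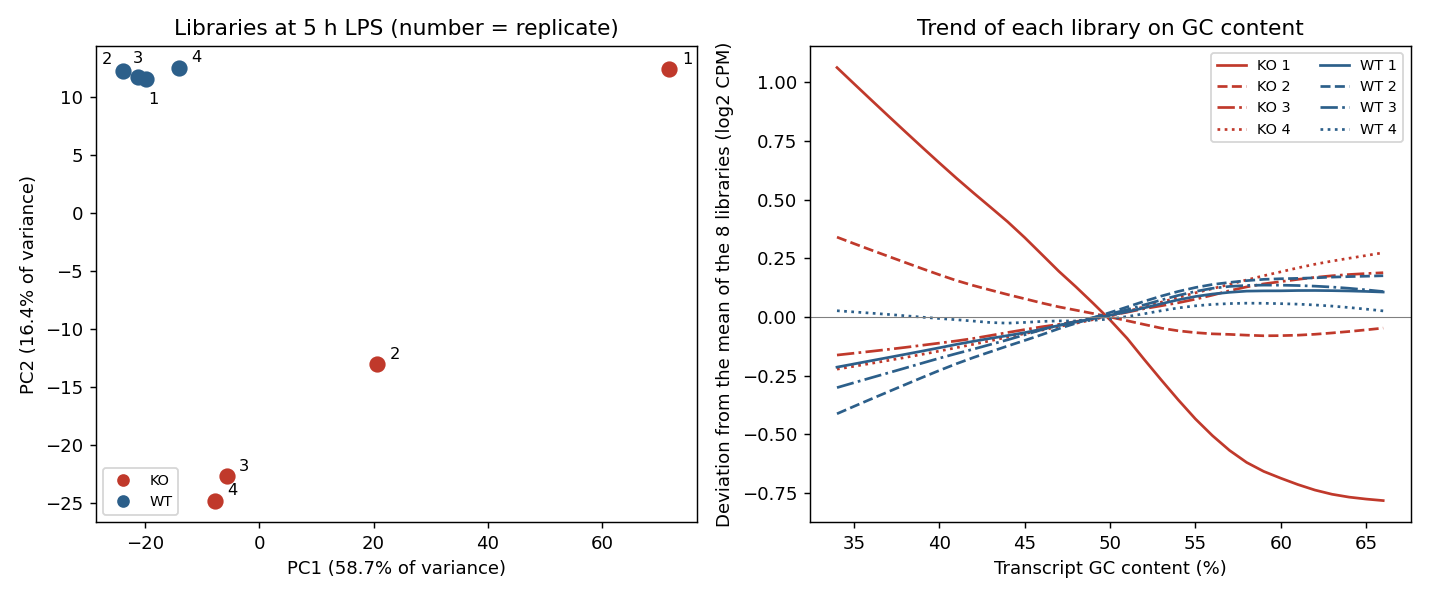
Left, the 8 libraries at 5 h of LPS on the first (58.7% of variance) and second (16.4%) principal components of log2 CPM, with replicate numbers; right, the smoothed deviation of each library from the mean of the 8 (log2 CPM) against transcript GC content in percent. BMDM-Nur77-KO replicate 1 lies at 71.7 on the first component. Its trend runs from 1.06 at 34% GC to -0.78 at 66% GC. Between the same GC contents, BMDM-Nur77-KO replicate 2 runs from 0.34 to -0.05 and BMDM-WT replicate 2 from -0.41 to 0.18.

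The libraries had the markers of macrophages. The summed level of 12 macrophage markers, led by Lyz2, was 18138 to 22039 CPM in BMDM-Nur77-KO and 23059 to 24887 CPM in BMDM-WT, and of the 12 only Cd14 was called (log2 fold change -0.72), which was lost without replicate 1. Markers of other cells were at lower levels. Neutrophil markers summed to 40.3 to 48.7 against 32.4 to 45.4 CPM, with Ly6g and Prtn3 at 0, and erythroid markers reached at most 0.487 CPM in any library. Endothelial markers summed to 7.15 to 9.64 against 17.3 to 21.0 CPM, most of it Kdr (log2 fold change -1.28), while Tek, Tie1 and Emcn were at 0. Megakaryocyte markers, mostly Pf4, summed to 46.1 to 69.6 against 83.9 to 97.0 CPM, and eosinophil markers, mostly Siglecf, to 6.49 to 7.95 against 3.09 to 4.26 CPM with Epx and Ear6 at 0. Fibroblast markers summed to 2.18 to 3.91 against 0.680 to 1.55 CPM, with Lum at 0. Osteoclast markers, led by Dcstamp, which was higher at 0.66, summed to 27.7 to 52.4 against 28.5 to 35.1 CPM. T and NK cell markers summed to 21.9 to 38.3 against 26.5 to 31.1 CPM with Klrb1c at 0, dendritic cell markers to 13.5 to 27.0 against 13.3 to 19.1 CPM, and B cell markers to 2.25 to 3.79 against 1.95 to 3.98 CPM. Mast cell and basophil markers stayed at or below 0.759 CPM. The part of these cells in the results was not tested. In bulk RNA, fewer cells that express a gene and less RNA of it per cell cannot be told apart.

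Nr4a1, on chromosome 15 of mm10 from 101253902 to 101274795, was close to the limit of detection in both genotypes at this time. It had 1, 2, 3 and 7 counts in BMDM-Nur77-KO replicates 1 to 4 and 7, 8, 8 and 9 in BMDM-WT, or 0.108, 0.167, 0.286 and 0.685 against 0.793, 0.975, 0.884 and 1.06 CPM. The groups did not overlap in CPM, and the difference of -1.54 on the log2 scale (adjusted p = 0.042, standard error 0.55) became -1.31 with an adjusted p of 0.18 without replicate 1. The counts cover the whole transcript, so reads from a deleted allele's remaining exons are not separated. The same difference was -1.90 before LPS and -1.20 at 1 h, when BMDM-WT held 438 ± 60.3 and BMDM-Nur77-KO 191 ± 40.0 CPM (SD, n = 4 each). The related receptor Nr4a2 had 8.24, 4.18, 3.63 and 4.90 CPM in BMDM-Nur77-KO and 2.72, 3.66, 2.65 and 3.54 CPM in BMDM-WT. It was called higher (log2 fold change 0.72, adjusted p = 0.027), but its groups overlapped, and without replicate 1 it was not called (0.43, adjusted p = 0.22). Nr4a3, the third member of the family, was at 11.2 ± 2.80 against 8.69 ± 0.48 CPM (adjusted p = 0.18).

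Of 11186 genes tested, 633 (5.66%) were called higher and 350 (3.13%) lower in BMDM-Nur77-KO. A fit of the 8 libraries alone called 175 and 133. Without replicate 1 the numbers were 321 (2.87%) and 224 (2.00%). Both ways of counting shared 277 higher (2.48%) and 197 lower (1.76%) genes, 48.2% of the 983 calls, and no call changed direction. Of these shared calls, 238 higher and 185 lower genes had groups of 4 libraries that did not overlap, as did 1011 (9.04%) and 1110 (9.92%) of all genes tested. The median log2 fold change of the shared calls was 0.91 for higher and -0.96 for lower genes. Calls lost without replicate 1 differed in base composition from those that stayed. The median GC content was 44.0% for the 356 lost higher genes and 55.5% for the 153 lost lower genes, against 47.8% and 52.2% for the shared calls and 50.2% for all genes. When the GC trend was removed from every library and replicate 1 left out, 248 of the 277 higher and 178 of the 197 lower genes were called again. In what follows a gene described as higher or lower was called both with and without replicate 1, while called higher or called lower refers to all 8 libraries, and calls lost without replicate 1 are named as such.

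Many of these differences were present at other times. The comparison called 264 (2.36%) genes higher and 266 (2.38%) lower before LPS, 165 (1.48%) and 152 (1.36%) at 1 h, and 644 (5.76%) and 466 (4.17%) at 18 h. Among the 277 genes higher at 5 h, the call recurred before LPS for 90, after 1 h for 77 and after 18 h for 108, and for 122 at none of these times. For the 197 lower genes these numbers were 76, 59, 72 and 89. A total of 42 higher and 34 lower genes were called the same way at all 4 times. By the test of the interaction, the log2 fold change was more positive at 5 h than before LPS for 195 (1.74%) of all genes and more negative for 154 (1.38%), whichever way the genes differed at either time. It was more positive at 5 h than at 1 h for 264 (2.36%) and more negative for 197 (1.76%), and more positive than at 18 h for 687 (6.14%) and more negative for 838 (7.49%). Without replicate 1 the positive and negative counts were 229 and 181 against 0 h, 170 and 151 against 1 h, and 747 and 985 against 18 h.

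Several of the largest differences were called at all 4 times and lay in gene clusters on a few chromosomes, although their size varied between times. Between 170 and 180 Mb of chromosome 1, 4 of 86 genes tested were higher and 21 lower (29.1%), and 12 of them at all 4 times. This stretch holds the Ifi200 genes, a family of interferon-inducible DNA sensors and regulators. Ifi202b (chromosome 1, 173962569 to 173982844) had 3265, 2168, 1467 and 1567 CPM in BMDM-Nur77-KO and 1.13, 0.366, 0.774 and 1.41 CPM in BMDM-WT, with 3 to 12 counts in each BMDM-WT library. It was nearly silent in BMDM-WT and differed by 11.14 on the log2 scale (adjusted p = 2.4e-18, standard error 0.37). Its neighbours went the other way. Ifi213 had 8.24, 3.26, 2.20 and 1.96 CPM against 111, 91.9, 99.9 and 143 CPM (log2 fold change -4.86), and Ifi208 45.5, 30.1, 21.7 and 26.0 CPM against 301, 286, 288 and 315 CPM (-3.27). Ifi205, Ifi209 and Ifi211 were lower at -1.34, -1.08 and -1.31. Ifi214 was higher, with 97.5, 59.1, 43.3 and 43.8 CPM against 15.2, 15.8, 17.2 and 17.9 CPM (1.88, adjusted p = 2.7e-08). The log2 fold change of Ifi213 was -6.66 before LPS, -7.85 at 1 h and -3.17 at 18 h. Ifi214 was called at 5 h and 18 h only, the others at all 4 times, and in none of these 7 genes did the groups overlap. The members are near-identical in places, so the split of reads among them by the authors' counting is uncertain.

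Promoters of 3 genes of this cluster, Ifi214 (higher) and Ifi208 and Ifi213 (lower), are shown because genes that moved in opposite directions carry the same element. The sequences are 30 bases of RefSeq on GRCm38.p6, 5′ to 3′ on the strand of the gene, chosen after the values were seen, with the match to the interferon-stimulated response element in capitals (searched on both strands as a pair of GAAA separated by any 2 bases).
Ifi208, lower, chr1:173673597-173673626: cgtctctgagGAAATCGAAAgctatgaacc
Ifi213, lower, chr1:173599326-173599355: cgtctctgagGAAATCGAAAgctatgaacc
Ifi214, higher, chr1:173536017-173536046: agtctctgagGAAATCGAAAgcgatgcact
The matches begin 58, 73 and 79 bases before the annotated start. Those of Ifi208 and Ifi213 are identical over 30 bases, and that of Ifi214 shares 26 of 30 with them, while the expression of Ifi214 and Ifi208 differed between the genotypes in opposite directions.

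Between 100 and 110 Mb of chromosome 7, 3 of 75 genes were higher and 6 lower (12.0%), 6 of them at all 4 times, and 5 of these were Trim genes, which encode ubiquitin ligases of antiviral defence. Trim12a had 3.14, 1.00, 2.00 and 1.37 CPM in BMDM-Nur77-KO against 60.3, 58.6, 52.5 and 61.7 CPM in BMDM-WT (log2 fold change -4.98, standard error 0.22), and Trim30b 1.08, 1.67, 0.668 and 2.45 against 16.1, 14.6, 12.8 and 19.6 CPM (-3.41). Both were over 10-fold lower in the means. Trim34a and Trim5 were lower at -1.29 and -2.15, whereas Trim34b was higher at 1.47, and reads of these paralogs may also be shared. The sixth gene, Folr2, a folate receptor of tissue macrophages, was higher at 0.63. Between 80 and 90 Mb of chromosome 3, 4 of 80 genes were higher and 4 lower (10.0%). There Cd5l, a secreted inhibitor of apoptosis made by macrophages, had 25.2, 34.9, 40.4 and 36.6 CPM against 825, 864, 836 and 715 CPM (-4.56, standard error 0.14, adjusted p = 1.6e-20). Its log2 fold change stayed between -4.56 and -4.27 over the 4 times. Over whole chromosomes, genes higher or lower made up 8.38% of the 668 genes tested on chromosome 1, 7.71% of 376 on chromosome 14 and 7.17% of 530 on chromosome 3, and 2.59% to 5.69% of those on each other autosome or the X.

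Other genes outside these clusters also differed at every time. Tnfrsf10b, a death receptor for TRAIL, had 16.5, 15.1, 14.1 and 12.6 CPM against 2.04, 1.83, 3.09 and 1.18 CPM (log2 fold change 2.82), and Fn1, which encodes fibronectin, 104, 107, 162 and 127 against 31.3, 32.3, 39.6 and 33.3 CPM (1.87). Both were higher in all 4 BMDM-Nur77-KO libraries, and for Fn1 the difference was smaller than before LPS (interaction -0.61, adjusted p = 0.034). Ddx58, the RIG-I sensor of viral RNA, fell from 876, 875, 924 and 924 CPM in BMDM-WT to 364, 308, 268 and 285 CPM (-1.55). Kcnab1, Tmem267, Mmp12 and F3 were higher, and Col18a1, Ubac2 and Mtmr11 lower, at each of the 4 times.

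**Figure D2:**
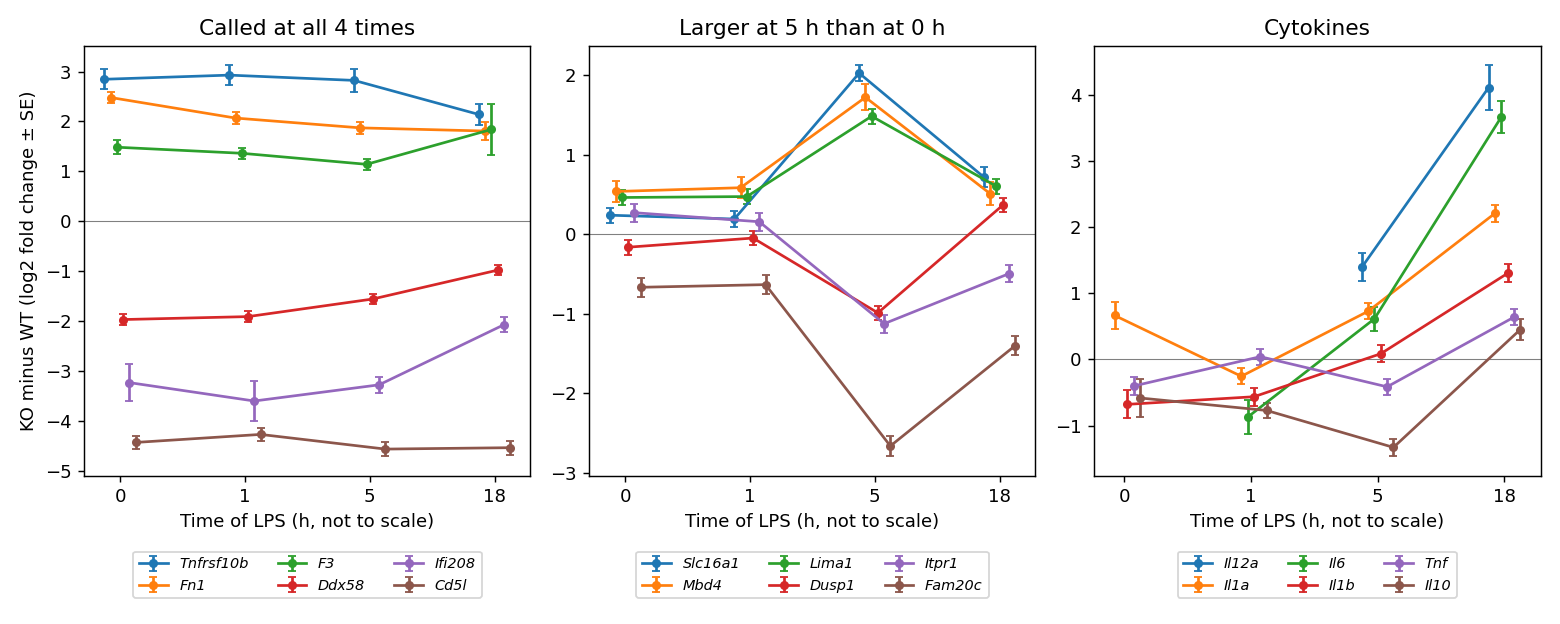
Log2 fold change, BMDM-Nur77-KO minus BMDM-WT, with its standard error, at 0, 1, 5 and 18 h of LPS (4 libraries per genotype and time, time axis not to scale) for 6 genes called at all times, 6 with a larger difference at 5 h than before LPS, and 6 cytokine genes. Points where no library had over 3 counts are left out; Slc16a1 lies at 2.02 and Fam20c at -2.66 at 5 h, and Il10 at -1.33.

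Other differences appeared or grew at 5 h. Slc16a1 encodes MCT1, a carrier of lactate and pyruvate across the cell membrane. It had 194, 172, 168 and 165 CPM in BMDM-Nur77-KO and 39.6, 41.2, 44.9 and 46.2 CPM in BMDM-WT, which is a difference of 2.02 on the log2 scale (adjusted p = 6.9e-16, standard error 0.10), and its difference stood at 0.24, 0.19 and 0.72 before LPS, at 1 h and at 18 h. Fam20c, the kinase that phosphorylates secreted proteins, had 27.5, 43.6, 48.9 and 45.2 CPM against 250, 268, 281 and 248 CPM (-2.66). Its difference was -0.67 before LPS, -0.63 at 1 h and -1.40 at 18 h. Slc16a1 and Fam20c had no overlap between the genotypes and nearly the same fold change without replicate 1 (1.97 and -2.51). Mbd4, a DNA glycosylase that repairs mismatches at methylated CpG sites, was higher (1.72, against 0.54 before LPS), and Itpr1, a calcium release channel of the endoplasmic reticulum, lower (-1.12, against 0.27 before LPS). Slamf1, a receptor of the SLAM family, was higher (46.6, 49.5, 41.6 and 42.1 against 13.9, 15.1, 16.2 and 15.6 CPM) and had at most 4 counts in any library before LPS. Adora2b, the adenosine A2B receptor, Gadd45g, a stress-induced growth inhibitor, and Pdgfb, a growth factor chain, were lower at -0.91, -0.94 and -0.92, with interactions of -1.24, -1.16 and -1.12. Pdgfb was not past the fold limit without replicates 1 and 2 (-0.55).

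For 25 higher and 26 lower genes, the difference at 5 h passed the test against each of the 3 other times, with replicate 1 included. Of these 51 genes, 47 had groups that did not overlap, beside 9.04% higher and 9.92% lower of all genes tested. The 51 were picked by their difference in the same libraries, which favours groups that do not overlap. The higher genes included Slc16a1, Mbd4 and Lima1, an actin-binding protein, and the lower genes Fam20c, Itpr1, Adora2b, Gadd45g, Ptges, Dusp1, Dusp4, Xbp1 and Ccnd1. Ets2, a transcription factor named after its values were seen, had 46.8, 45.7, 45.8 and 44.4 CPM against 76.7, 80.4, 81.1 and 74.1 CPM (-0.77), with -0.02 before LPS and 0.59 at 18 h. Among all 277 higher and 197 lower genes, the call at 18 h was the opposite one for 13 and 15. All 28 passed the test of 5 h against 18 h, as the choice of genes with opposite calls made nearly certain. Nos2, the inducible nitric oxide synthase, was 777, 933, 974 and 976 CPM in BMDM-Nur77-KO and 1451, 1474, 1522 and 1349 CPM in BMDM-WT (-0.66), against 1.52 at 18 h (interaction -2.18, adjusted p = 4.9e-09). Its fold change was -0.54 after the GC correction without replicate 1 and so short of the limit. Hilpda, a lipid droplet protein, was at -1.09 at 5 h and 0.75 at 18 h, and Gadd45g at -0.94 and 0.61. Ch25h, which makes 25-hydroxycholesterol, was at -0.88 and 2.70, Irf4 at -1.03 and 1.77, and Pparg at 0.81 and -0.59, all 3 named after their values were seen.

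Cytokine genes moved in both directions. Of 14 tested of a cytokine panel, 4 were called higher and 2 lower, beside 5.66% and 3.13% of all genes. Of these, 3 and 1 were also called without replicate 1. The median log2 fold change was -0.05 (0.08 without replicate 1) beside 0.02 (0.01) over all genes. Il10, the cytokine that restrains macrophage activation (chromosome 1, 131019845 to 131024970), had 14.2, 13.7, 11.7 and 12.1 CPM in BMDM-Nur77-KO and 36.9, 27.0, 29.4 and 36.8 CPM in BMDM-WT. Every BMDM-Nur77-KO library was under the lowest BMDM-WT library, and the log2 fold change was -1.33 (standard error 0.13, adjusted p = 1.2e-08). It was -0.77 at 1 h and 0.45 at 18 h. The IL-12 family was split. Il12a, the p35 subunit of IL-12, had 9.75, 6.53, 5.15 and 7.54 CPM against 2.61, 2.31, 3.21 and 2.83 CPM (1.39, adjusted p = 4.9e-05), and Il23a, the p19 subunit of IL-23, 2.82, 2.34, 2.67 and 1.66 against 0.453, 0.731, 0.663 and 0.471 CPM (2.01, adjusted p = 1.0e-04). Both were higher without overlap, at low levels. Il12b, the p40 subunit that pairs with either, was at 247 ± 16.3 against 302 ± 20.2 CPM, a log2 fold change of -0.29 that passed the test (adjusted p = 0.037) but not the fold limit. Ebi3, a subunit of IL-27, was called lower (-0.65), which was lost without replicate 1 (-0.46).

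Il1a had 3116, 2390, 2363 and 2228 CPM in BMDM-Nur77-KO and 1468, 1391, 1560 and 1683 CPM in BMDM-WT (log2 fold change 0.73, 0.61 without replicate 1), so its groups did not overlap, although the GC correction without replicate 1 left 0.52, under the fold limit. Il1b, its sister gene, did not differ in the test (2012, 1983, 2248 and 2170 against 1948, 2018, 1983 and 1980 CPM, 0.09, adjusted p = 0.66). Il6 had 496, 331, 299.6 and 300.4 CPM against 247, 207, 222 and 257 CPM. Its log2 fold change of 0.61 (adjusted p = 0.019) fell to 0.41 (adjusted p = 0.085) without replicate 1, which held the highest value, while at 18 h the difference was 3.66. Tnf had 631, 1023, 1129 and 1177 CPM against 1302, 1315, 1342 and 1318 CPM. Its groups did not overlap either, at -0.41 (adjusted p = 0.016), and at -0.25 (adjusted p = 0.064) without replicate 1. For Il6, Il12a, Il12b, Il1b, Tnf and Il10, the difference at 5 h lay below that at 18 h, by -3.05, -2.71, -1.84, -1.21, -1.05 and -1.78 on the log2 scale, each with an adjusted p of at most 8.9e-05.

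**Figure D3:**
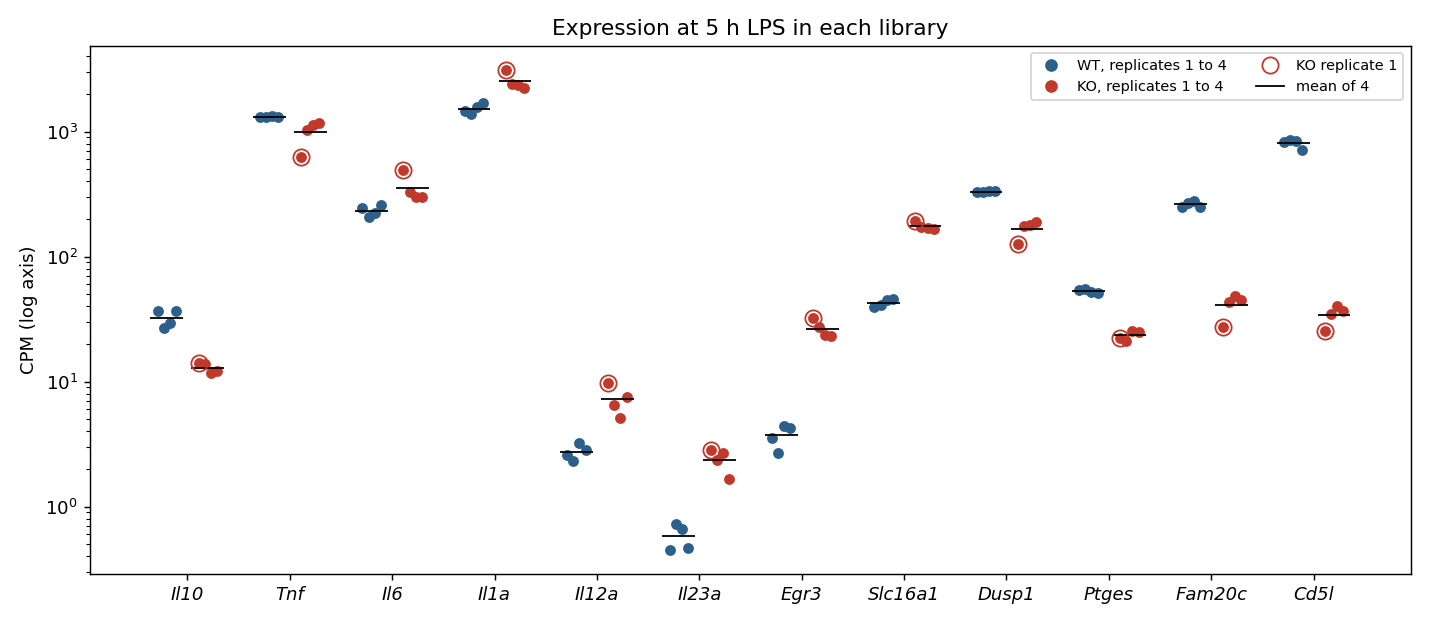
CPM on a log axis in each of the 8 libraries at 5 h of LPS for 12 genes, with a line at the mean of 4 and an open ring around BMDM-Nur77-KO replicate 1. Il10, Dusp1, Ptges, Fam20c and Cd5l are lower and Il12a, Il23a, Egr3 and Slc16a1 higher in every BMDM-Nur77-KO library than in any BMDM-WT library, while replicate 1 is the highest for Il6 and Il1a and the lowest for Tnf.

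Of 23 chemokine genes tested, 3 were called higher and 4 lower, beside 5.66% and 3.13% of all genes, and 2 and 4 of these without replicate 1. As background, Cxcl1 and Cxcl3 attract neutrophils, and Ccl7 and Ccl12 monocytes. Cxcl1 had 31.6, 19.1, 15.2 and 13.3 CPM against 5.21, 5.36, 8.84 and 9.78 CPM (log2 fold change 1.43, 1.12 without replicate 1), and Cxcl3 20.3, 15.7, 17.3 and 18.8 against 9.51, 10.8, 9.06 and 12.3 CPM (0.79). Ccl7 had 629, 581, 629.9 and 629 against 1112, 1115, 1021 and 1109 CPM (-0.82), and Ccl12 136, 129, 155 and 160 against 255, 259, 232 and 223 CPM (-0.74). Ccl24, an eosinophil attractant, was lower at -0.81 and Ccl4 at -0.78, the latter not called without replicates 1 and 2 (-0.46, adjusted p = 0.081). Cxcl9 was called higher (1.12) only with replicate 1. Of 22 targets of NF-kB, 1 was called, Zc3h12a, which encodes the RNase Regnase-1 (-0.67), and it was lost without replicate 1.

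The promoters of Cxcl1 and Il6 are shown for their NF-kB and AP-1 elements, as 30 bases from RefSeq (GRCm38.p6, strand of the gene) chosen after the values were seen, with the matched letters in capitals. The NF-kB motif searched was GGG, any 2 bases, then TTTCC, and the AP-1 motif TGANTCA, both on either strand.
Cxcl1, NF-kB, chr5:90891146-90891175: ccggttgcagGGAAACACCCtgtactccgg
Cxcl1, NF-kB, chr5:90891164-90891193: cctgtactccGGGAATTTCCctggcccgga
Il6, NF-kB, chr5:30013060-30013089: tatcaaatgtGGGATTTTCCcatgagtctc
Il6, AP-1, chr5:30012864-30012893: cTGAGTCActtttaaagaaaaaaaagaaga
A window with an NF-kB match was held by 8 of 202 (3.96%) genes higher with a promoter in the table, 7 of 146 (4.79%) lower and 187 of 8865 (2.11%) of all genes tested.

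Of 30 interferon-stimulated genes, 1 was called higher and 2 lower, beside 5.66% and 3.13% of all genes. Ddx58 was lower, while Ifi44 (0.91) and Bst2 (-0.75) were called only with replicate 1. The median log2 fold change was -0.03. For 15 interferon-induced GTPases of the GBP and IRG families the median was 0.34 and fell to 0.10 without replicate 1, with 1 called (Gbp2b, 1.01) and none without it.

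Early genes and their feedback regulators differed in both directions. Of 22 immediate-early genes and dual-specificity phosphatases (DUSP), 3 were higher and 3 lower, beside 2.48% and 1.76% of all genes. A seventh, Dusp5 (-0.80), was called only with replicate 1. Egr3, a zinc finger transcription factor of the first wave, had 32.1, 27.6, 23.5 and 23.0 CPM in BMDM-Nur77-KO and 3.51, 2.68, 4.42 and 4.24 CPM in BMDM-WT (log2 fold change 2.83, standard error 0.19, adjusted p = 3.8e-12). In BMDM-WT it had stood at 83.6 ± 9.54 CPM at 1 h, against 205 ± 21.7 CPM in BMDM-Nur77-KO, so it was lower at 5 h than at 1 h in both and the fold change grew from 1.29 to 2.83. Phlda1 and Gadd45a were also higher, at 1.30 and 0.73 (Gadd45a at 0.57, under the limit, without replicates 1 and 2). Dusp1, the phosphatase that switches off p38 and JNK, had 125, 175, 178 and 190 CPM against 327, 331, 335 and 333 CPM (-0.99, standard error 0.09, adjusted p = 2.6e-09). It differed by -0.16 before LPS and -0.05 at 1 h. Dusp2 and Dusp4 were lower at -1.02 and -0.80. Of 22 AP-1 genes, which encode the bZIP factors of the JUN, FOS, ATF and MAF families, the median log2 fold change was -0.03 (-0.05 without replicate 1). Maff, a small MAF, had 32.7, 37.2, 38.6 and 33.8 CPM against 14.5, 13.2, 15.9 and 15.1 CPM (1.28), and its groups did not overlap.

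Of 18 genes of the IL-10 and STAT3 axis, 1 was higher (Etv3, a transcriptional repressor, 0.59) and 3 lower, beside 2.48% and 1.76% of all genes. The median log2 fold change was -0.26, and -0.27 without replicate 1. Before LPS it was also -0.26. Besides Il10 the lower genes were Il4ra, the IL-4 receptor chain, with 240, 386, 413 and 407 CPM against 647, 683, 633 and 602 CPM (-0.83), and Saa3, an acute-phase protein, with 264, 254, 259 and 296 against 479, 460.1, 438 and 469.9 CPM (-0.78). In both, the highest BMDM-Nur77-KO library was below the lowest BMDM-WT library.

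Of 17 genes for nitric oxide, itaconate and eicosanoids, 3 were lower and 1 higher, beside 1.76% and 2.48% of all genes (median log2 fold change -0.27, -0.17 without replicate 1). Ptges, the last enzyme of prostaglandin E2 synthesis, had 22.3, 21.2, 25.2 and 25.1 CPM against 53.8, 55.3, 52.2 and 50.9 CPM (-1.18, standard error 0.10, adjusted p = 1.1e-09), and Hpgd, which degrades prostaglandin E2, 6.94, 4.18, 1.91 and 3.13 against 0.453, 1.10, 1.33 and 1.77 CPM (1.78). Neither gene overlapped between the genotypes, although Hpgd was not called without replicates 1 and 2 (1.11, adjusted p = 0.059). Ass1, which makes the arginine precursor argininosuccinate, had 10.4, 14.0, 18.7 and 20.0 CPM against 31.9, 28.0, 35.4 and 30.9 CPM (-0.999). Its difference was absent from the calls before LPS and at 1 h (0.00 and 0.39) and was -0.84 at 18 h.

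Of 21 matrix and coagulation genes, 5 were called higher and none lower, beside 5.66% and 3.13% of all genes, and 4 of the 5 (Fn1, Mmp9, Mmp12 and F3) without replicate 1, with a median log2 fold change of 0.18 and of 0.27 without it. Mmp12, the macrophage elastase, had 4993, 3537, 3092 and 3124 CPM against 1539, 1506, 1611 and 1726 CPM (1.21), Mmp9 414, 555, 731 and 770 against 294, 299.98, 368.3 and 368.1 CPM (0.89), and F3, tissue factor, 49.2, 41.5, 39.5 and 38.6 against 18.8, 16.1, 20.1 and 21.3 CPM (1.14). None of the 3 overlapped between genotypes, and all were also called at the other 3 times. F10, coagulation factor X, was at 0.62 and slipped to 0.57, just short of the limit, without replicate 1.

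Several AP-1 elements lay in promoters of the genes above, in higher and in lower genes. The windows below, 30 bases of RefSeq on GRCm38.p6 on the strand of the gene and chosen after the values were seen, are shown because they carry TGANTCA (capitals) in genes that differed at 5 h.
Il1a, higher, chr2:129309973-129310002: taaaaaggcagagaagccTGACTCAgactt
F3, higher, chr3:121723380-121723409: cgcggcgctgtTGAATCAcggttgagtcac
F3, higher, chr3:121723391-121723420: tgaatcacggtTGAGTCAcccctttcgggg
Mmp12, higher, chr9:7347319-7347348: gacatcaacagTGAGTCAgatagaggattt
Cd80, higher, chr16:38458880-38458909: tggccacacccTGATTCAgaactctcactc
Tlr9, lower, chr9:106222529-106222558: caaatgatgtgTGACTCAttgtaccacctg
Sema4c, lower, chr1:36558385-36558414: ggcgcagacctTGACTCAcgagctgcaaga
Hilpda, lower, chr6:29272487-29272516: ctggactgcagTGAATCAaccgcgagccgc
Within 250 bases before to 50 after the start, TGANTCA was held by 27 of 202 (13.4%) higher genes with a promoter in the table. It was held by 18 of 146 (12.3%) lower genes, 562 of 8865 (6.34%) of all genes tested and 2425 of 27025 (8.97%) of all genes with a promoter. Counted by promoter and not by gene, the share was 2565 of 32851 (7.81%). With replicate 1 included and its extra calls kept, the shares of genes called higher and called lower were 8.07% and 8.89%. The NBRE, the monomer element of Nur77 (AAAGGTCA), was held by 1 (0.495%) higher gene, 4 (2.74%) lower genes, 1.12% of all genes tested and 1.70% of all genes with a promoter. The interferon-stimulated response element was held by 7 (3.47%) higher genes, 16 (11.0%) lower genes, 4.12% of all genes tested and 3.99% of all genes with a promoter. The NF-kB motif was held by 1.89% of all genes with a promoter. Motifs were read on both strands. Such matches are letters in a window, and neighbouring genes of a family, such as the Ifi200 genes, count separately although they share sequence.

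The promoters of 2 lower genes with the NBRE are shown for that element, again with its letters in capitals, on GRCm38.p6 and the strand of the gene.
Trim30b, lower, chr7:104358867-104358896: ggtgtcAAAGGTCAaaggtcgttccaatgg
Ubac2, lower, chr14:121878361-121878390: ctcgcccagtgAAAGGTCAgaggtctcgag
Ubac2, a ubiquitin-binding protein of the endoplasmic reticulum, had 4.23, 5.10, 8.59 and 9.99 CPM against 20.8, 21.0, 22.3 and 18.9 CPM (log2 fold change -1.57), and was lower at the other 3 times as well.

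Cell cycle lists had medians below 0. Of 28 genes of DNA replication and G1/S, 4 were lower and 1 higher, beside 1.76% and 2.48% of all genes. Ccne2 (0.98) was called only with replicate 1. The median log2 fold change was -0.37, and -0.36 without replicate 1, beside -0.33 before LPS. Ccnd1, cyclin D1, had 225, 255, 270.5 and 271 CPM against 429, 407, 393 and 424 CPM (-0.70, with -0.20 before LPS), and the helicase subunit genes Mcm5 and Mcm7 and the polymerase gene Pole were lower at -0.80, -0.82 and -0.78 (Mcm5 at -0.54, under the limit, without replicates 1 and 2). Ccne1, cyclin E1, was higher at 0.69. Of 24 mitotic genes the median was -0.20, and -0.31 without replicate 1, beside -0.31 before LPS. Ccnb1 and Aurkb were lower (-0.97 and -0.82), the latter not called without replicates 1 and 2, and Cdc20 (-1.30) was called only with replicate 1. Mki67, the proliferation marker, was called higher (0.87) with replicate 1 and not without it (0.55), with 256, 145, 141 and 101 CPM against 77.5, 94.8, 103 and 77.7 CPM.

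Lists for glycolysis, respiration and ribosomal proteins had medians below 0 that moved towards 0 without replicate 1. For 35 glycolysis and HIF genes the median log2 fold change was -0.28 with and -0.14 without this library. Called lower were 7 and 2 of them, beside 3.13% and 2.00% of all genes, and none was called higher. The genes lower either way were P4ha2, a collagen prolyl hydroxylase (-1.60), and Slc16a3, the lactate exporter MCT4 (-0.76), which stands opposite to the other lactate carrier gene, Slc16a1. Slc16a3 had 11.5, 17.3, 20.7 and 21.9 CPM against 27.9, 29.7, 33.6 and 29.9 CPM, and was not called without replicates 1 and 2 (-0.51, adjusted p = 0.13). Among 40 respiratory chain subunits the median was -0.19 (-0.09 without replicate 1) and among 30 ribosomal protein genes -0.40 (-0.24), and their called members, Sdhc and Rpl13, Rpl27, Rps19 and Rps29, were all lost without it. These 5 genes were lowest in replicate 1 and next lowest in replicate 2, as in Rpl13 with 65.3, 133, 181 and 188 CPM against 208, 219.6, 218.7 and 202 CPM. The median of 29 lysosomal genes was -0.16 (-0.05), with Asah1 (0.81) and Atp6v0d2 (1.30), a subunit of the vacuolar proton pump, higher.

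Stress genes gave single differences. Of 16 heat shock genes, 5 were called higher and none lower, beside 5.66% and 3.13% of all genes. The 2 of them also called without replicate 1 were Dnajb4 (132, 86.5, 69.3 and 72.1 against 30.9, 29.0, 33.6 and 35.4 CPM, log2 fold change 1.48) and Hspa1b (11.7, 17.1, 17.0 and 19.4 against 11.6, 8.53, 8.18 and 8.84 CPM, 0.81). Reads of Hspa1b may be shared with a near-identical neighbour. Of 21 genes of the ATF4 stress response, Ddit3, the transcription factor CHOP, was higher (0.88), and Phgdh, the entry enzyme of serine synthesis, and Slc7a5, a carrier of large amino acids, were lower (-1.49 and -0.98). Among 20 genes of the unfolded protein response only Xbp1 was called, lower at -0.71 with 59.8, 72.6, 90.0 and 82.4 CPM against 125, 126, 123 and 125 CPM. Without replicate 1 it was at -0.61, and with the GC correction besides at -0.57, under the limit.

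Genes of macrophage identity and alternative activation had the largest share of calls among the lists of over 20 genes, 11 of 23 (5 higher and 6 lower, 5 and 5 without replicate 1) beside 5.66% higher and 3.13% lower of all genes. The median was -0.07. Higher were Clec7a, the beta-glucan receptor dectin-1 (1529, 1132, 798 and 856 against 604, 581, 586 and 677 CPM, log2 fold change 0.82), Marco, a scavenger receptor (0.96), Folr2, Cd300ld (0.80) and Pparg. Lower were Stab1, the scavenger receptor stabilin-1 (59.4, 116, 187 and 159 against 299, 326, 329 and 250.1 CPM, -1.20), Tgfbi, a secreted matrix protein (-0.92), Il4ra, Ccl24 and Irf4. Clec10a (-0.66) was lost without replicate 1. Marco, Cd300ld, Clec7a and Irf4 were not called without replicates 1 and 2, and Irf4 overlapped between genotypes. Of 15 costimulatory and checkpoint ligands, 3 were higher and 1 lower either way, beside 2.48% and 1.76% of all genes. Cd80 (100.02, 86.2, 72.6 and 72.6 against 43.3, 41.7, 45.8 and 47.1 CPM, 0.90), which activates T cells through CD28, Tnfsf4 (OX40 ligand, 0.90) and Tnfsf15 (0.84) were higher, and Tnfrsf9, the receptor 4-1BB, lower (-1.41). Icosl and Tnfrsf14 were called lower only with replicate 1. Of 28 Toll-like receptor pathway genes, Tlr9, the receptor of CpG DNA, was lower (11.2, 20.4, 19.1 and 18.3 against 29.7, 33.5, 41.1 and 30.4 CPM, -0.96), while Cd14, the LPS co-receptor, was called only with replicate 1.

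The remaining lists had at most 3 calls each, beside 5.66% called higher and 3.13% called lower of all genes. With and without replicate 1, the shares of all genes were 2.48% and 1.76%. Of 10 MHC class II genes, Ifi30, a lysosomal thiol reductase of antigen processing, was higher (0.84), and of 19 MHC class I genes none was called without replicate 1. Among 23 LXR targets and lipid genes Cd5l and Hilpda were lower, of 24 cholesterol synthesis genes Hsd17b7 (-0.66), of 19 TCA cycle genes Suclg2 (-0.65) and of 19 NRF2 targets Me1 (-1.10). Hsd17b7 and Me1 were not called without replicates 1 and 2 (adjusted p = 0.052 and 0.051). Of 9 nuclear noncoding RNAs, Gas5 (0.61) was called higher only with replicate 1, and Dleu2 (0.96), whose groups overlapped, not without replicates 1 and 2. The median of these 9 was 0.43 and fell to 0.19 without replicate 1, and of 10 mRNA decay factors 1, Zc3h12a, was called and only with it.

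**Figure D4:**
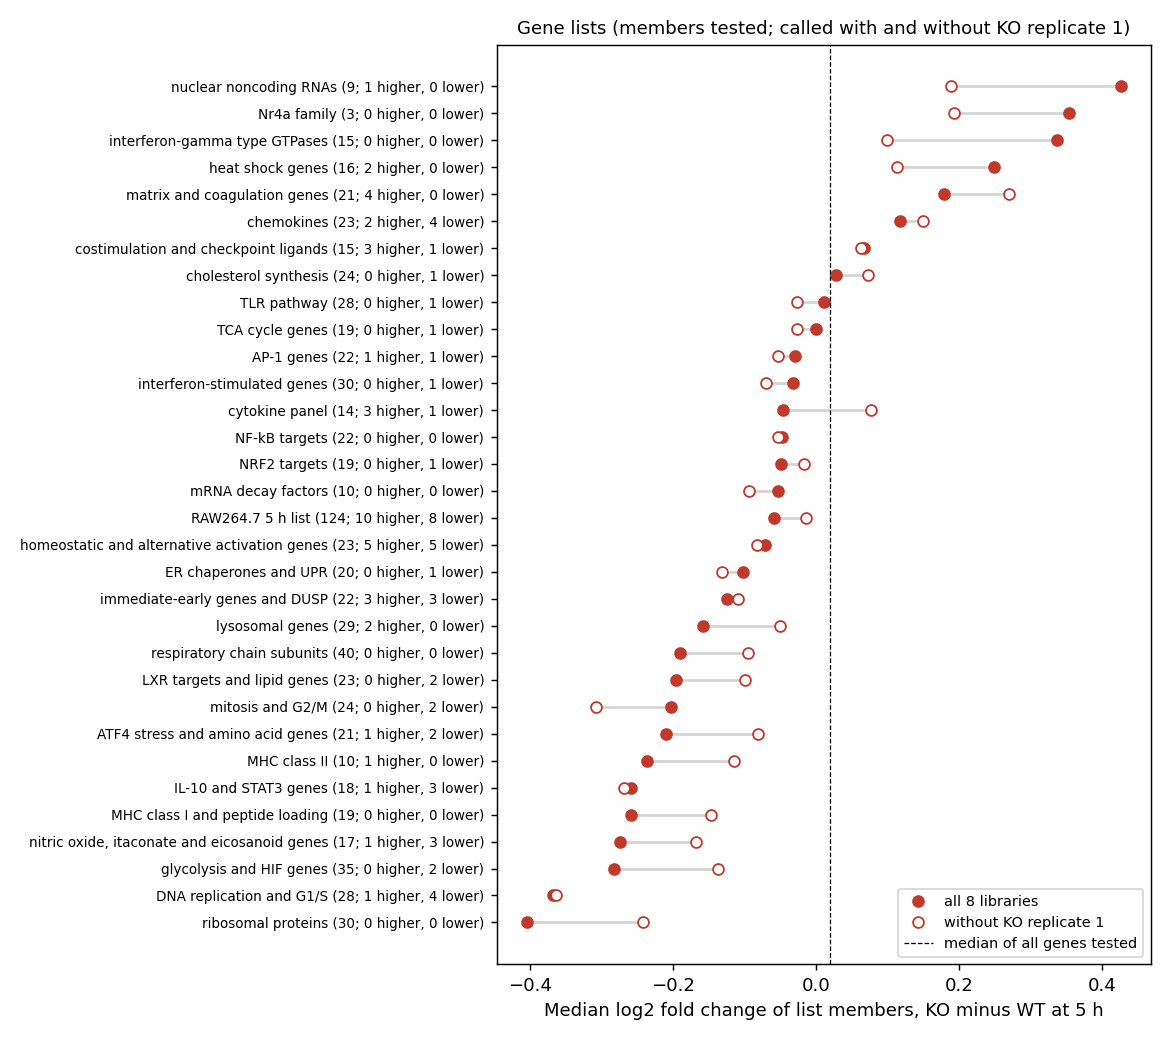
Median log2 fold change at 5 h, BMDM-Nur77-KO minus BMDM-WT, of the tested members of each gene list with all 8 libraries (filled) and without BMDM-Nur77-KO replicate 1 (open), and the number of members called both ways, beside the median of all genes tested (dashed, 0.02). Ribosomal proteins move from -0.40 to -0.24 and glycolysis genes from -0.28 to -0.14 when the library is left out, while DNA replication genes stay at -0.37 and -0.36.

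The study lists genes that LPS induced and Nur77 overexpression lowered at 5 h in the mouse macrophage line RAW264.7. The list comes from libraries of another cell type than these. The study itself set its lists from 1 h and 5 h against these macrophages and reports genes raised in the knockout after 1, 5 or 18 h of LPS. The counts here cover the 5 h list at 5 h only, with the limits used above. Of its 124 genes tested here, 13 were called higher and 12 lower in BMDM-Nur77-KO, beside 5.66% and 3.13% of all genes, and 10 and 8 of these also without replicate 1, with a median log2 fold change of -0.06 (-0.01). Among the higher were Mmp9, H2-M2 (0.74), an MHC class Ib gene, and Gem (0.76), a small GTPase that was not called without replicates 1 and 2, and among the lower Nos2, Ptges, Dusp1, Saa3, Ccl7, Tnfrsf9 and Hilpda.

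Genes were also grouped by how BMDM-WT responded at 1 h and 18 h of LPS. Those libraries are not in the contrast at 5 h, but they share its model and so its estimate of the spread. A 2-fold limit gave 385 (3.44%) induced and 186 (1.66%) repressed genes at 1 h and 1485 (13.3%) induced and 1576 (14.1%) repressed at 18 h. Of 200 genes induced at 1 h and not at 18 h, 28 (14.0%) were called higher at 5 h and 13 (6.50%) lower, with 21 and 8 without replicate 1. Of 1300 genes induced at 18 h and not at 1 h, 69 (5.31%) were called higher and 97 (7.46%) lower, with 39 and 71 without replicate 1, so in this class lower calls outnumbered higher ones. Of 1558 genes repressed at 18 h only, 173 (11.1%) were called higher and 77 (4.94%) lower, with 126 and 63 without replicate 1. The 7838 genes that responded at neither time had 347 (4.43%) higher and 148 (1.89%) lower calls, and 123 and 70 without replicate 1. The medians of the first 3 of these classes were 0.14, -0.06 and 0.05.

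Genes near Nr4a1 were called more often than others by count. Within 10 Mb of its start, 14 of 100 genes tested (14.0%) were called, 8 higher and 6 lower, against 27 of 328 (8.23%) on the rest of chromosome 15 and 613 higher and 329 lower of 10758 (8.76%) on other chromosomes. Without replicate 1 these shares were 10.0%, 4.57% and 4.83%, and within 20 Mb the share was 9.60%. Nr4a1 is itself among the 14. Lima1 (chromosome 15, 99778468 to 99875477) had 247, 232, 193 and 173 CPM against 78.2, 76.0, 78.9 and 69.5 CPM (log2 fold change 1.48, 1.40 without replicate 1), and its difference was larger than before LPS (0.46, interaction 1.02). Csrnp2, Pou6f1 and Cela1, an elastase gene, were higher at 1.31, 0.87 and 1.29, and Spats2, Cacnb3, Tmem106c and Slc38a1, a glutamine carrier, lower at -1.68, -0.96, -0.79 and -0.79. Cela1 overlapped between genotypes (0.975, 2.68, 3.44 and 2.15 against 1.13, 1.10, 1.22 and 0.354 CPM). Mettl7a3, one of several similar genes in a row, had 5, 26, 22 and 12 counts against 3, 0, 0 and 0. Cbx5, Ccnt1, Yaf2 and Letmd1 were called only with replicate 1. Whether sequence linked to the deleted allele differs between the genotypes here was not tested.

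**Figure D5:**
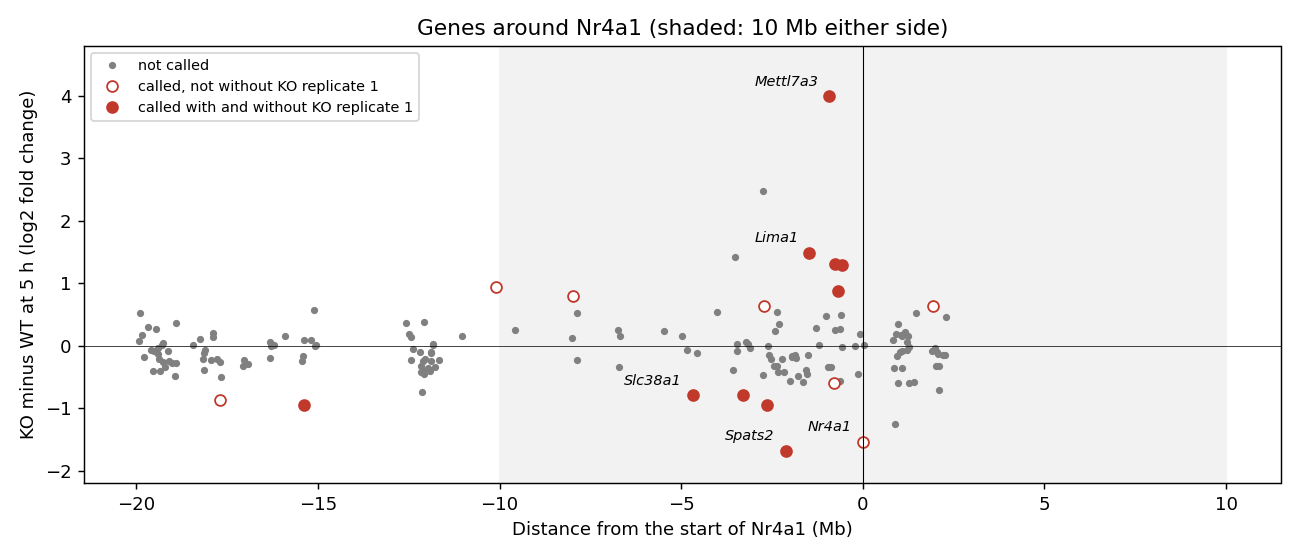
Log2 fold change at 5 h, BMDM-Nur77-KO minus BMDM-WT, of genes tested within 20 Mb of Nr4a1 against the distance of their start from that of Nr4a1 (Mb), with genes called with and without BMDM-Nur77-KO replicate 1 filled and genes called only with it as open circles. Within the shaded 10 Mb, 14 of 100 genes were called, among them Lima1 at 1.48 and Spats2 at -1.68.

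Replicate 1 weighed on calls in a regular way. It was the highest of the BMDM-Nur77-KO libraries in 77.6% of genes called higher and the lowest in 68.6% of genes called lower, against 41.6% and 42.3% of all genes, and 54.5% and 52.8% of the calls that stayed without it. Among the genes lost without it, those with the smallest adjusted p were close to the fold limit and had no overlap between the genotypes. Rcbtb1 moved from 0.59 to 0.54 and Rassf4, a tumour suppressor of the RASSF family, from -0.62 to -0.56, with 974, 1114, 1206 and 1278 CPM against 1728, 1779, 1837 and 1705 CPM. Clip1, Phactr4 and Nup54 were at 0.63 to 0.66 with replicate 1 and 0.47 to 0.54 without it, and Slc7a8, Cyth4, Wfdc17 and Ndrg1 at -0.66 to -0.61 with it and -0.57 to -0.49 without it, each with an adjusted p of at most 0.00036 without it. For these genes the loss of the call is a matter of the fold limit and not of the test.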

How the data were processed

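RNA of 32 macrophage cultures was sequenced from strand-specific poly(A) libraries, and the 8 at 5 h are compared here. Per the labels and methods, the authors used CASAVA 1.8.2 for base calls, aligned reads to mm10 with HISAT2 2.1.0, kept alignments with a mapping quality over 15 and counted them over RefSeq transcripts with HOMER, without normalization. The deposited values are expected counts (estimated counts, since each mate adds 0.5), and they were rounded to whole numbers. Each gene was represented by its transcript of highest mean count. Of 42361 transcripts, 93 had no gene name and held 0.233% to 1.37% of counts. Columns not used numbered 0. Summed over the transcripts that represent the genes, counts per library at 5 h ranged from 10206035 to 15165490, which limits the precision of genes at a few counts.

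Genes with a mean RPKM over 1 in some group were tested (11186 of 25067). edgeR 4.0.16 (R 4.3.3, limma 3.58.1) fitted a quasi-likelihood model with 8 groups to all 32 libraries after TMM scaling, with Benjamini-Hochberg adjustment over all genes tested. A difference between times was the interaction in that model, with no fold limit. The procedure was tested on simulated counts. Alternatives covered DESeq2 1.42.0, other filters and scalings, a GC correction (lowess, span 0.3), the 8 libraries alone, and leaving out libraries. Genes named are members of the Nr4a family and 5 cytokines fixed by name, the 12 largest differences each way with at least 50 mean counts and no overlap, the smallest p values of each list, the 6 largest interactions with 0 h each way, calls lost without replicate 1, and calls within 10 Mb of Nr4a1. Other genes named, such as Mmp9 and Cxcl3, fall outside these rules. They are to be taken as named after their values were seen, also where no note beside them says so. The members, lists and tests were chosen with earlier results of these data known, so no count over a list is independent evidence. Promoter sequences are RefSeq's (GRCm38.p6). The result for 1 gene is not reported here.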

Additional observations from a re-analysis of the deposited data

Results flagged for a closer look

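A library far from the other 3 of its group was found in 12 of 270 groups of 4 tested for the named genes, with chance giving about 1 in 20, and in 4 of the 12 that library was BMDM-Nur77-KO replicate 1. The measure is the gap to the nearest library divided by the range of the group and was compared with Dixon's critical value for 4 libraries. BMDM-Nur77-KO replicate 1 was the highest for Il6 (0.838) and Phlda1 (0.878) and the lowest for Il4ra (0.845) and Slc7a8 (0.875). Replicate 2 was the lowest for Ccl7 (0.978) and the highest for Vegfa (0.869). In BMDM-WT, replicate 3 was the lowest for Ccl7 (0.938) and Csrnp2 (0.934), replicate 2 the lowest for P4ha2 (0.864), replicate 4 the lowest for Rps29 (0.916) and Cela1 (0.862), and replicate 1 the highest for Mettl7a3 (1.000), where the other 3 libraries had no count.

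For 27 of the genes named here the genotype difference at 5 h differed from that before LPS by the test of the interaction itself (edgeR quasi-likelihood test, adjusted p under 0.05, BMDM-Nur77-KO replicate 1 included). The interaction is given here as the difference of log2 fold changes. It was above 0 for Slamf1 (3.44), Egr3 (2.13), Slc16a1 (1.78), Cytip (1.32), Zrsr2 (1.23), Mbd4 (1.18), Lima1 (1.02), Ccne1 (0.95), Ddit3 (0.68) and Cd80 (0.61). It was below 0 for Fam20c (-1.99), Itpr1 (-1.39), Me1 (-1.34), Adora2b (-1.24), Gadd45g (-1.16), Pdgfb (-1.12), Sema4c (-1.06), Ass1 (-1.0), Dusp4 (-0.95), Ptges (-0.92), Dusp1 (-0.82), Hsd17b7 (-0.78), Slc38a1 (-0.78), Tgfbi (-0.62), Fn1 (-0.61), Xbp1 (-0.53) and Ccnd1 (-0.50). For Fn1 the negative value means a smaller excess at 5 h, since the gene was higher at both times.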

How the results depend on the processing

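The counts of 633 higher and 350 lower genes became 344 and 232 with the GC correction and without BMDM-Nur77-KO replicate 1, 250 and 185 without replicates 1 and 2, 175 and 133 when only the 8 libraries were fitted, 280 and 210 when these were fitted without replicate 1, 1150 and 610 with every transcript as a row, 1533 and 1197 with no fold limit, and 161 and 93 with a log2 limit of 1. Leaving out 1 library at a time gave 321 to 975 higher and 224 to 725 lower genes, with 321 and 224 without BMDM-Nur77-KO replicate 1, 966 and 653 without its replicate 3, and 975 and 725 without its replicate 4. DESeq2 gave 742 and 349. Of the interactions, 5 h against 0 h went from 195 in the positive and 154 in the negative direction to 397 and 311 with every transcript and 82 and 88 with only the libraries compared, and the negative count to 252 with DESeq2 and 94 with no filter. Against 1 h, 264 and 197 became 477 and 305 with DESeq2, 586 and 384 with every transcript, 164 and 122 with no filter and 128 and 78 with only the libraries compared. Against 18 h, 687 and 838 became 1469 and 1593 with every transcript and 309 and 530 with only the libraries compared. Leaving out 1 library gave 132 to 309 and 107 to 208 against 0 h, and 156 to 891 and 122 to 637 against 1 h, where the highest counts came without BMDM-Nur77-KO replicate 4. The sign of Il1b turned after the GC correction (-0.0004262). The cause of these changes was not tested. Of 131 named genes called, 39 were lost without replicate 1, 53 without replicates 1 and 2, 40 with only the 8 libraries, 25 with the GC correction and 4 with DESeq2. The settings without replicates 1 and 2, with the GC correction or the 8 libraries alone both without replicate 1, were chosen after seeing the data. Genes at a few counts, such as Nr4a1, are limited by depth.

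Replicate numbers were not taken to pair the libraries, since the correlations of same-numbered deviations at 5 h were -0.009, -0.041, 0.128 and -0.108. With the replicate number as a block, 53 higher and 52 lower genes were called and 84 of the 131 named calls were lost (45 of the 92 that stayed without replicate 1), with interactions of 62 and 71 against 0 h, 71 and 51 against 1 h and 232 and 442 against 18 h.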

Other observations

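Some further genes, named after their values were seen, had groups far apart at 5 h. Zdhhc2, a palmitoyltransferase, had 1.30, 1.51, 1.15 and 0.783 CPM in BMDM-Nur77-KO and 8.61, 6.70, 9.28 and 8.25 CPM in BMDM-WT (log2 fold change -2.78, adjusted p = 7.7e-09). Cysltr2, a leukotriene receptor, had 1 count in all BMDM-Nur77-KO libraries together and 2.87 to 5.44 CPM in each BMDM-WT library. Itgax, the integrin CD11c, was higher in BMDM-Nur77-KO, with 243, 301, 356 and 362 against 155, 161, 168 and 165 CPM (0.96, adjusted p = 1.9e-08). Ide, the insulin-degrading enzyme, had 122, 111, 112 and 102 against 63.7, 62.9, 60.9 and 61.3 CPM (0.84), and Apobec1, a cytidine deaminase, 302, 292, 280.4 and 306 against 179, 189.6, 183 and 196 CPM (0.66).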
